A study of Mus musculus with 15 samples.

Results

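Genes of the feedback circuit of fibroblast growth factor (FGF) and mitogen-activated protein kinase (MAPK) signalling were followed in transplanted mouse bone marrow cells that carried a HOXB4 vector or a GFP vector. The genes were chosen by name, as a list of 10: the Sprouty genes Spry1, Spry2 and Spry4, the Sprouty-related genes Spred1 and Spred2, the phosphatases Dusp4, Dusp5 and Dusp6, and the ETS factors Etv4 and Etv5. Of these, 9 had at least 1 probe set, 21 probe sets in all, among 17097 genes and 28898 probe sets with a single gene symbol. Dusp5, a nuclear phosphatase of the ERK kinases, had no named probe set and was not analysed here.

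Marrow of female C57Bl/6 mice given 5-FU (5-fluorouracil, which kills cycling cells) was transduced with a retroviral vector, either MSCV-HOXB4-ires-YFP or the control MSCV-ires-GFP, and put into lethally irradiated mice, C57Bl/6L in the series text. Cells that carried the colour of the vector were then sorted from the hosts as LSK cells, without culture. LSK stands for no lineage markers, Sca-1 and Kit, a fraction that holds stem cells and early progenitors. The 5 groups of 3 arrays are HOXB4 cells at 6, 12 and 20 weeks and GFP cells at 12 and 20 weeks after transplantation as the sample titles have it, and the series text names 24 weeks in place of 20. All groups share the 5-FU treatment, the transduction and the irradiated host, the retroviral promoter drives HOXB4 in whatever cell carries the vector, and the ages of the mice are not stated. The labels do not say whether the arrays of a group came from separate mice, so the spread between them may be technical.

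When FGF or another receptor tyrosine kinase ligand binds, RAS activates the RAF, MEK and ERK kinases in turn, and ERK switches on target genes through ETS factors. Etv4 and Etv5 are such factors and are themselves induced by the pathway. Sprouty and Spred proteins act back on RAS and RAF, and the dual-specificity phosphatases remove the activating phosphates from ERK, so that the pathway limits itself. In blood progenitors the receptors Kit and Flt3 signal through the same kinases.

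Values are log2 signals after RMA, which corrects background, equalises the arrays and sums up the probes of a probe set. Differences are log2 differences and carry the standard error (SE) of a linear model that limma fitted over all genes, and a gene is called at an adjusted p under 0.05. For each gene the brightest probe set was tested, and the others served as a check. The 3 arrays of a group correlated between 0.967 and 0.979 in HOXB4 cells at 6 weeks, and between 0.978 and 0.994 in the other groups. Replicate 1 of HOXB4 at 6 weeks stood apart in the Gapdh control probes. Their 3' end exceeded the 5' end by 3.76 there, against 0.81 to 2.02 on the others. Degraded RNA can give such a gap, but its cause was not tested. Kit lay between 7.89 and 8.79 and Cd34 between 8.95 and 10.24 on the 15 arrays. Itgam, a myeloid marker that the sort should remove, lay between 4.50 and 5.67 in HOXB4 cells at 20 weeks, against 6.63 to 6.76 in GFP cells at 20 weeks.

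Dusp6, the cytosolic phosphatase that acts on ERK, was the member whose tested probe set was called between the vectors. At 20 weeks its signal was 7.82, 7.74 and 7.97 on the HOXB4 arrays, against 5.65, 6.47 and 7.01 on the GFP arrays. All 3 HOXB4 arrays lay above all 3 GFP arrays, and the GFP arrays were spread over more than 1 log2 unit. The means were 7.84 ± 0.12 in HOXB4 and 6.38 ± 0.68 in GFP cells (SD, n = 3 each). Dusp6 was thus higher in HOXB4 cells by 1.47 ± 0.28 (SE), which is 2.76-fold (95% interval of the log2 difference 0.86 to 2.07, limma adjusted p = 0.00428). It was called under all 15 alternatives run for this comparison, with differences between 1.10 and 1.88 and adjusted p between 0.000276 and 0.0437.

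At 12 weeks Dusp6 was at 7.06, 7.16 and 7.38 in HOXB4 cells, against 7.02, 7.14 and 6.86 in GFP cells. These arrays overlapped, and the difference of 0.20 ± 0.28 was not called (95% interval -0.41 to 0.80, adjusted p = 0.763). HOXB4 cells at 6 weeks had 7.26, 7.06 and 6.27, with replicate 3 the lowest. From high to low the group means were 7.84 in HOXB4 at 20 weeks, 7.20 in HOXB4 at 12 weeks, 7.01 in GFP at 12 weeks, 6.86 in HOXB4 at 6 weeks and 6.38 in GFP at 20 weeks. Of the neighbours in that order, HOXB4 at 20 and 12 weeks and both vectors at 12 weeks were tested and did not differ at an adjusted p under 0.05, and the other pairs were not tested.

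Within each vector, Dusp6 at 20 weeks minus 12 weeks was 0.64 ± 0.28 in HOXB4 cells (adjusted p = 0.418) and -0.63 ± 0.28 in GFP cells (adjusted p = 0.355), and neither was called. The value in GFP cells rested on single arrays, at -0.27 without replicate 1 at 20 weeks (adjusted p = 0.82) and -0.94 without replicate 3 (adjusted p = 0.0853). The difference between the vector effects at 20 and at 12 weeks was 1.27 ± 0.40 (95% interval 0.41 to 2.13, adjusted p = 0.223), so a change of the effect with time was not shown. It ran from 0.90 without GFP replicate 1 at 20 weeks (adjusted p = 0.433) to 1.58 without GFP replicate 3, where it was called (adjusted p = 0.0469). In HOXB4 cells the difference of Dusp6 between 20 and 6 weeks, 0.98 ± 0.28, missed the threshold (adjusted p = 0.0648). Without replicate 1 at 6 weeks, the array with the high Gapdh ratio, this was 1.18 and was called (adjusted p = 0.0474). Without replicate 3, the lowest at 6 weeks, it was 0.68 (adjusted p = 0.182), and without replicate 2 it was 1.08 (adjusted p = 0.0637). It was called under 1 of 15 alternatives and so rested on single arrays.

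**Figure D1:**
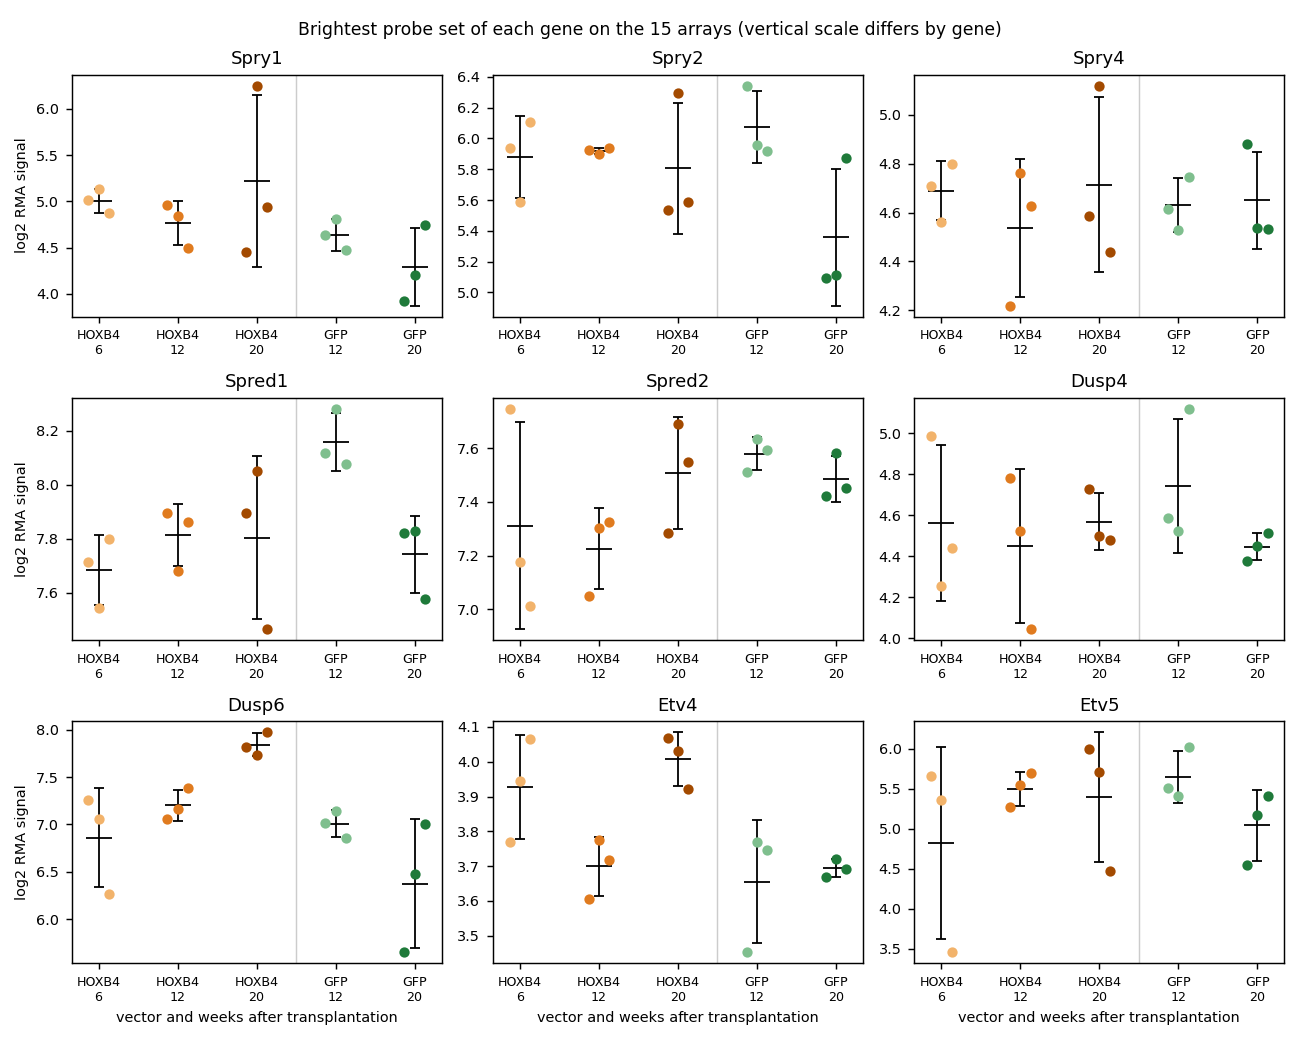
Log2 RMA signal of the brightest probe set of each of the 9 genes, with 1 point per array and the mean ± SD of the 3 arrays in black, for HOXB4 at 6, 12 and 20 weeks and GFP at 12 and 20 weeks. Dusp6 at 20 weeks is at 7.74 to 7.97 in HOXB4 and at 5.65 to 7.01 in GFP cells, with no overlap, while 1 high HOXB4 array at 20 weeks sets the mean of Spry1.

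The bases before the start of Dusp6 and of Spred1, the members with a called probe set, are shown because ERK acts on such genes through ETS factors. The ETS core was searched as GGAA on both strands, and its matches are in capitals. The sequences are RefSeq's for GRCm38.p6, each 250 bases up to the start of the gene, both on the plus strand, at chr10:99262981-99263230 for Dusp6 and chr2:117120821-117121070 for Spred1.
Dusp6: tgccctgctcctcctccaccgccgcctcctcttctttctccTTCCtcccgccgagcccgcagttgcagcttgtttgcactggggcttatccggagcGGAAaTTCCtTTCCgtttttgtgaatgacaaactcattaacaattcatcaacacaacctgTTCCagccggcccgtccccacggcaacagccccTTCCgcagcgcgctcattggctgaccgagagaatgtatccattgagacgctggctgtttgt
Spred1: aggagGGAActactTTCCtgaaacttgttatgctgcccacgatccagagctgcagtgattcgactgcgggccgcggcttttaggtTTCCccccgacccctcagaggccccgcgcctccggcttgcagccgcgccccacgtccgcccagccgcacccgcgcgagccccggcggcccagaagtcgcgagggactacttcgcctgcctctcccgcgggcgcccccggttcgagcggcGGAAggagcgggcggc

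Dusp6 held 6 matches of GGAA and Spred1 held 4. The core is short, and 93.4% of 32851 promoter windows of this length hold it, with 6 or more matches in 8.7% and 4 or more in 33.4%. Among the measured members, 6 had a promoter entry, and Spred2 held 7 matches, Spry2 held 3 and Spry1 held 1. Of the 2 windows of Etv5, 1 held 4 matches and the other 0. The longer form CCGGAA, which 12.0% of windows hold, was in none of these members' windows. The homeobox core TAAT, on either strand, was found in 54.9% of windows and in that of Dusp6 at position -119 from the start. A match is only a match of letters, and binding was not measured here.

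Among the Sprouty genes, inhibitors that act between the receptor and RAF, none was called in any of the 7 comparisons. Spry1 at 20 weeks was at 4.45, 6.25 and 4.94 in HOXB4 cells, against 3.92, 4.20 and 4.74 in GFP cells. Replicate 2 of HOXB4 stood far above the rest, and the groups overlapped. The difference was 0.92 ± 0.33 (95% interval 0.21 to 1.64, adjusted p = 0.109). Without that array it was 0.41 (adjusted p = 0.326), and without HOXB4 replicate 1, the lowest of the 3, it was 1.30 and was called (adjusted p = 0.0173). The value of Spry1 at 20 weeks therefore rested on single arrays. At 12 weeks the difference was 0.13 ± 0.33 (adjusted p = 0.881).

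Spry2 was measured by a pair of probe sets. Its tested one was at 5.54, 6.30 and 5.59 in HOXB4 cells at 20 weeks, against 5.09, 5.11 and 5.87 in GFP cells at 20 weeks. The groups overlapped, with a difference of 0.45 ± 0.23 (adjusted p = 0.275), which ran from 0.20 to 0.70 with 1 array left out. The second probe set differed by 0.41 ± 0.30 at 20 and -0.18 ± 0.30 at 12 weeks, and the tested one by -0.16 ± 0.23 at 12 weeks, none called. In GFP cells the 20-week arrays all lay below the 12-week arrays, which were at 6.34, 5.96 and 5.92. That difference was -0.72 ± 0.23 on the tested probe set (adjusted p = 0.142) and -0.92 ± 0.30 on the second (adjusted p = 0.164, over every named probe set). On the tested probe set it was called without GFP replicate 3 at 20 weeks, the highest of its group, at -0.97 (adjusted p = 0.0249). Without GFP replicate 1 at 12 weeks or replicate 1 at 20 weeks it was -0.58 (adjusted p = 0.450 and 0.448). It was called under 2 of 15 alternatives and so rested on single arrays. In HOXB4 cells the same times differed by -0.11 ± 0.23 (adjusted p = 0.908).

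Spry4 had 4 probe sets, of which the brightest averaged 4.64 over the arrays, and all 15 values of that probe set lay between 4.22 and 5.12. Its differences between the vectors were -0.10 ± 0.18 at 12 and 0.06 ± 0.18 at 20 weeks (95% intervals -0.48 to 0.29 and -0.32 to 0.45). The other 3 probe sets averaged 3.89, 3.36 and 2.65 and differed by 0.29, -0.05 and -0.02 at 20 weeks and by 0.05, -0.18 and -0.04 at 12 weeks. On the first of them, 1440867_PM_at, the arrays at 20 weeks did not overlap (adjusted p = 0.19), and HOXB4 cells at 12 weeks lay below those at 6 weeks by a difference of -0.51 ± 0.13 (adjusted p = 0.0533). None was called. The mean of Spry4, like those of Spry1, Dusp4 and Etv4, was in the dimmest 1 in 3 of genes, at or below 4.81. With no detection calls, such values may be close to background, where RMA compresses differences.

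Spred1 and Spred2 bring the RAS inactivator neurofibromin to the membrane. On their brightest probe sets both were lower in HOXB4 than in GFP cells on all arrays at 12 weeks, by amounts that did not pass. Spred1 was at 7.90, 7.68 and 7.86 in HOXB4, against 8.12, 8.28 and 8.08 in GFP cells, a difference of -0.35 ± 0.14 (adjusted p = 0.202). Its other probe sets differed by 0.05, -0.14, -0.38 and -0.30 at that time, and the mean of all 5 by -0.22 (adjusted p = 0.282). Spred2 was at 7.05, 7.30 and 7.32 in HOXB4, against 7.51, 7.63 and 7.59 in GFP cells, a difference of -0.35 ± 0.17 (adjusted p = 0.255). For both tested probe sets the groups did not overlap. At 20 weeks these probe sets differed by 0.06 ± 0.14 and 0.02 ± 0.17 (95% intervals -0.25 to 0.37 and -0.33 to 0.38), and their arrays overlapped.

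The 5 probe sets of Spred1 did not give 1 answer at 20 weeks. The dimmest, 1452911_PM_at, was at 6.94, 6.79 and 7.37 in HOXB4, against 6.39, 6.35 and 6.03 in GFP cells, and was higher in HOXB4 cells by 0.78 ± 0.17. Probe set 1423162_PM_s_at was at 7.41, 7.29 and 7.13 in HOXB4, against 6.64, 6.96 and 6.56 in GFP cells, and was higher by 0.56 ± 0.13. Probe set 1423161_PM_s_at was at 7.13, 7.55 and 7.26 in HOXB4, against 6.77, 6.90 and 6.61 in GFP cells, and was higher by 0.56 ± 0.16. On these 3 each HOXB4 array lay above each GFP array, and all passed over all named probe sets (limma adjusted p = 0.0107, 0.0136 and 0.0435). The remaining probe sets differed by 0.06 ± 0.15 (the brightest, 1428777_PM_at) and 0.10 ± 0.22 (1423160_PM_at), with overlapping arrays. With the mean of its probe sets in place of the brightest, Spred1 was higher by 0.41 and was called (adjusted p = 0.0319). The s in a probe set's name marks probes shared by several transcripts, and which Spred1 transcripts each probe set reads was not tested.

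In GFP cells all 5 probe sets of Spred1 were lower at 20 than at 12 weeks without overlap, by -0.42 to -0.78. The dimmest probe set was at 6.39, 6.35 and 6.03 at 20 weeks, against 7.01, 7.07 and 7.03 at 12 weeks, and fell by 0.78 ± 0.17 (adjusted p = 0.0302, over all named probe sets). Probe set 1423161_PM_s_at fell by 0.70 ± 0.16 (adjusted p = 0.0343). The brightest differed by -0.42 ± 0.14 (adjusted p = 0.185) and was not called, while the mean of the probe sets fell by 0.59 (adjusted p = 0.0108). In HOXB4 cells the differences between 20 and 12 weeks ran from -0.20 to 0.30 over the 5 probe sets and none was called. The test of whether the vector effect differed between the times gave 1.07 ± 0.24 on the dimmest probe set (adjusted p = 0.0822) and 0.41 to 0.70 on the other 4, none called.

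**Figure D2:**
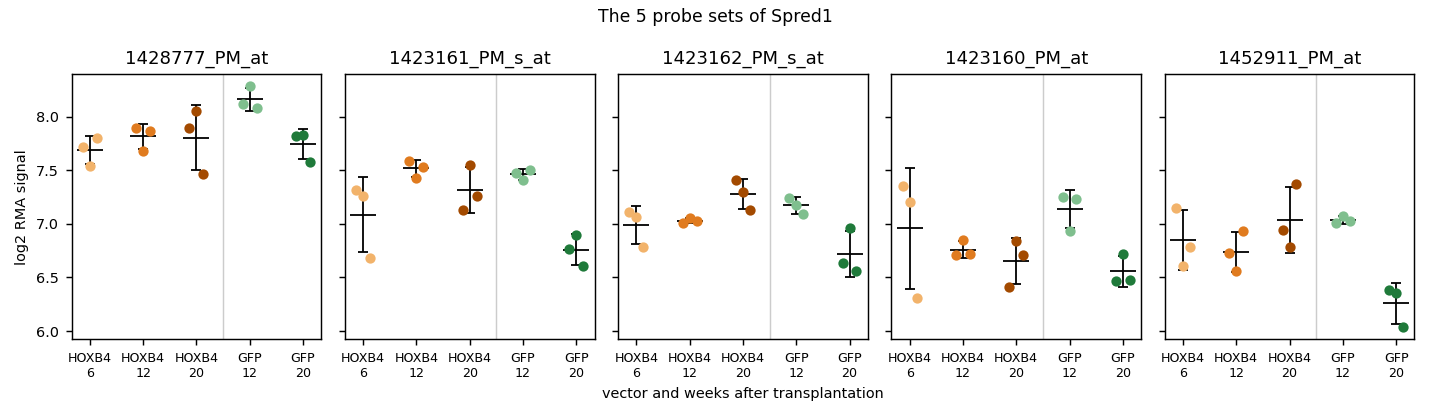
Log2 RMA signal of the 5 probe sets of Spred1, brightest on the left, with 1 point per array and the mean ± SD of 3 arrays, for HOXB4 at 6, 12 and 20 weeks and GFP at 12 and 20 weeks. GFP at 20 weeks is below GFP at 12 weeks on every probe set, whereas HOXB4 at 20 weeks is above GFP at 20 weeks without overlap on 1423161_PM_s_at, 1423162_PM_s_at and 1452911_PM_at.

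For Spred2 the 5 probe sets differed between the vectors at 20 weeks from -0.39 to 0.51, and none was called. At 12 weeks the 3 brightest gave -0.35, -0.29 and -0.35, each with all HOXB4 arrays below all GFP arrays, and the others gave 0.16 and -0.15. Over all probe sets of the members, 4 of 21 were called at 20 weeks, those of Dusp6 and 3 of Spred1, against 8.33% of the 28898 named probe sets. Between 20 and 12 weeks in GFP cells 2 of 21 were called, both of Spred1, against 1.89%.

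Dusp4, a nuclear MAPK phosphatase, differed by -0.29 ± 0.21 at 12 weeks (95% interval -0.74 to 0.16) and by 0.12 ± 0.21 at 20 weeks (-0.33 to 0.58). Its 15 values lay between 4.05 and 5.12, and neither difference was called.

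Etv4 was at 4.07, 4.03 and 3.92 in HOXB4 cells at 20 weeks, against 3.67, 3.72 and 3.69 in GFP cells at 20 weeks. The groups did not overlap, and the difference of 0.31 ± 0.11 was not called (95% interval 0.07 to 0.56, adjusted p = 0.110). It was also above the 12-week HOXB4 arrays, at 3.61, 3.77 and 3.72, by 0.31 ± 0.11 (adjusted p = 0.309). All 15 values of Etv4 were between 3.45 and 4.07, at the dim end of the array. The size of the difference may be understated, and the values cannot be told from background.

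Etv5 varied most between replicates. HOXB4 arrays at 20 weeks were at 6.00, 5.71 and 4.48, against 4.55, 5.17 and 5.41 in GFP cells, and those at 6 weeks were at 5.66, 5.36 and 3.45. In both HOXB4 groups replicate 3 stood low, and the arrays of both vectors overlapped. The differences were 0.35 ± 0.48 at 20 weeks (95% interval -0.67 to 1.38) and -0.14 ± 0.48 at 12 weeks (-1.17 to 0.88), so changes of up to about 1 log2 unit could not be seen. With 1 array left out, the 20-week difference ran from 0.05 to 0.81, the highest without HOXB4 replicate 3, and was not called.

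Counted together, 0 of the 9 members were called between the vectors at 12 weeks, where 4.02% of all 17097 genes were. At an unadjusted p under 0.05, 2 were lower in HOXB4 cells, Spred1 and Spred2, against 11.1% of all genes, and the same 2 had groups that did not overlap, against 20.5%. The median of the members was -0.14 and that of all genes -0.02, with 3 of 9 above 0, against 47.2% of all genes. At 20 weeks 1 of 9 was called, Dusp6, against 8.95% of all genes in either direction and 3.77% called higher. At an unadjusted p under 0.05, 3 were higher, Dusp6, Spry1 and Etv4, against 10.3%, and the arrays of Dusp6 and Etv4 did not overlap, against 12.9%. All 9 brightest probe sets were above 0 at 20 weeks, where 54% of all genes were, with a median of 0.31 against 0.02.

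The test of the difference between both vector effects called 0 of 9 members, against 0.509% of all genes, and 1, Dusp6, had an unadjusted p under 0.05 in the positive direction, against 5.53%. All 9 were above 0, against 53.4%, with a median of 0.41. In GFP cells, 0 of 9 were called between 20 and 12 weeks, against 2.37%. There 3 had an unadjusted p under 0.05 and were lower at 20 weeks, Spry2, Spred1 and Dusp6, against 7.76%, and 3 did not overlap, Spry2, Spred1 and Dusp4, against 14.1%. Only 2 of 9 were above 0, against 42%, with a median of -0.35. These 3 comparisons share the GFP arrays at 20 weeks, so their directions are not separate evidence.

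Within HOXB4 cells 0 of 9 were called between 20 and 12 weeks, against 0.252% of all genes. Dusp6 and Etv4 had an unadjusted p under 0.05 and were higher at 20 weeks, against 5.09%, and the same 2 did not overlap, against 8.49%. Between 12 and 6 weeks 0 of 9 were called, against 1.57%, and 0 had an unadjusted p under 0.05, against 16.7%. Between 20 and 6 weeks 0 of 9 were called, against 4.66%, and Dusp6 alone was higher at an unadjusted p under 0.05, against 12.2%, and without overlap, against 9.31%.

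**Figure D3:**
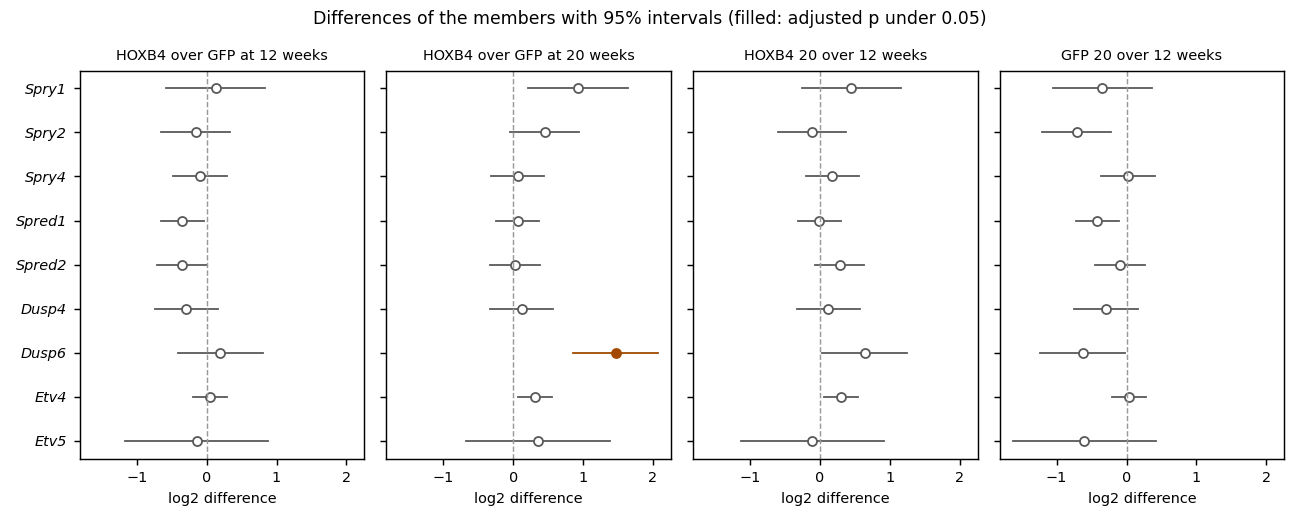
Log2 differences of the 9 genes (brightest probe set) with the 95% intervals of the model, for HOXB4 over GFP at 12 and at 20 weeks and for 20 over 12 weeks in HOXB4 and in GFP cells. Filled points passed an adjusted p of 0.05, which Dusp6 did at 20 weeks, and the other 8 genes at 20 weeks have open points between 0.02 and 0.92.

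The rest of the pathway was read from 9 lists of 119 genes, of which 104 were measured. Between the vectors 4 were higher, 6 lower and 94 not called at 12 weeks, where 4.02% of all genes were called. At 20 weeks 10 were higher, 5 lower and 89 not called, where 8.95% of all genes were called. The medians of the 104 genes were -0.003 and 0.04, close to those of all genes.

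At the top of the pathway, of 22 FGF ligands 1 was lower at 12 weeks, Fgf3 (-1.15 ± 0.21, adjusted p = 0.00815), which was lower at 20 weeks too (-0.73 ± 0.21, adjusted p = 0.041). At 20 weeks Fgf13, an intracellular relative of the FGFs that is not secreted, was higher by 0.99 ± 0.25 (adjusted p = 0.0213). It was at 5.38, 4.25 and 5.19 in HOXB4, against 4.12, 3.62 and 4.11 in GFP cells. These GFP values are below the 4.81 of the dim genes. Of the 7 FGF receptors and co-receptors limma called 0 at either time, with an unadjusted p under 0.05 for 0 at 12 and 1 at 20 weeks, and Fgfr1 differed by -0.36 ± 0.23 at 12 and 0.13 ± 0.23 at 20 weeks. Of 10 receptors that feed ERK in blood progenitors, 3 were lower and 7 not called at 12 weeks, namely Csf3r (-1.53 ± 0.25), Il3ra (-0.83 ± 0.21) and Kit (-0.63 ± 0.13). At 20 weeks 3 were higher, Flt3 (1.41 ± 0.33), Tek (1.78 ± 0.51) and Pdgfrb (1.38 ± 0.26), 2 were lower, Csf1r (-1.87 ± 0.23) and Csf3r (-1.65 ± 0.25), and 5 were not called. Tek was widely spread in HOXB4 cells, at 5.39, 7.90 and 6.56, against 5.01, 5.17 and 4.33 in GFP cells. Between 20 and 12 weeks in GFP cells Csf1r rose by 1.30 ± 0.23, while Pdgfrb (-1.06 ± 0.26) and Epor (-0.84 ± 0.18) fell. Csf3r, Csf1r, Kit, Flt3, Epor and Pdgfrb are also in the lists of cell type markers given below. Their changes here and there are therefore not separate observations. Of 11 receptor adaptors limma called 0 between the vectors, with an unadjusted p under 0.05 for 1 at 12 and 2 at 20 weeks.

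Of 10 measured genes of the RAS to ERK core, Ksr1, a scaffold that holds RAF, MEK and ERK together, was higher in HOXB4 cells at 20 weeks. It was at 7.56, 7.80 and 7.35 in HOXB4, against 6.43, 6.55 and 6.70 in GFP cells, with no overlap and a difference of 1.01 ± 0.13 (adjusted p = 0.0002). In GFP cells Ksr1 fell by 0.81 ± 0.13 at 20 weeks relative to 12 weeks (adjusted p = 0.00399), and in HOXB4 cells it rose by 0.63 ± 0.13 at 12 weeks relative to 6 weeks (adjusted p = 0.0316). Rps6ka3, a kinase activated by ERK, was lower in HOXB4 cells, with differences of -0.87 ± 0.16 at 12 weeks (adjusted p = 0.00932) and -0.86 ± 0.16 at 20 weeks (adjusted p = 0.00317). Of 11 other negative regulators of RAS and ERK, Rasal3, a RAS inactivator of blood cells, was higher at 20 weeks by 1.26 ± 0.21 (adjusted p = 0.00168) and 10 were not called. At 12 weeks limma called 0 of these 11, and 1 had an unadjusted p under 0.05.

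Of 9 other MAPK phosphatases, 2 were higher in HOXB4 cells at 12 weeks. Dusp1, an immediate-early phosphatase, was at 8.22, 8.98 and 9.03 in HOXB4, against 7.26, 6.62 and 7.13 in GFP cells, a difference of 1.75 ± 0.46 (adjusted p = 0.0491). Dusp2, a nuclear phosphatase of immune cells, was at 8.06, 7.77 and 7.77 in HOXB4, against 7.02, 7.32 and 6.73 in GFP cells, a difference of 0.84 ± 0.17 (adjusted p = 0.0151). Neither overlapped between the vectors. At 20 weeks Dusp2 was higher by 0.85 ± 0.17 (adjusted p = 0.00582) and the other 8 were not called, while Dusp6 moved in the same direction and Dusp4 was not called.

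Of 15 other output genes of ERK, the immediate-early gene Fos was higher at 12 weeks by 2.43 ± 0.58 (adjusted p = 0.0299), and the cyclin Ccnd1 was lower by -0.77 ± 0.19 (adjusted p = 0.0414). At 20 weeks Fosl2 was lower by -0.99 ± 0.28 (adjusted p = 0.041) and 14 were not called. Of 9 other ETS factors, Ets1, which acts in lymphoid cells, was higher at 12 weeks by 2.07 ± 0.32 (adjusted p = 0.00407) and at 20 weeks by 1.13 ± 0.32 (adjusted p = 0.0404). At 20 weeks Etv1, the third member of the class of Etv4 and Etv5, was higher by 0.72 ± 0.19 (adjusted p = 0.0264), as was Elk4 by 0.94 ± 0.24 (adjusted p = 0.0215), and 6 were not called. Etv1 was then at 4.68, 3.67 and 3.86 in HOXB4, against 3.34, 3.34 and 3.37 in GFP cells. These values are below the 4.81 of the dim genes and may be close to background. In HOXB4 cells 4 of the 9 were higher at 20 than at 6 weeks, where 4.66% of all genes were called in either direction. Among them Ets1 rose by 1.47 ± 0.32 and Etv1 by 0.87 ± 0.19 (adjusted p = 0.0214 for both), and the others called are not named. Between 12 and 6 weeks 2 of the 9 were higher, where 1.57% of all genes were called.

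Markers of other cells moved with the Dusp6 difference at 20 weeks, where 8.95% of all genes were called between the vectors. Of 9 measured granulocyte-monocyte progenitor genes all 9 were lower in HOXB4 cells, with a median of -2.69. The log2 of their summed signal was 11.19 to 12.30 in HOXB4, against 14.03 to 14.58 in GFP cells. Of 10 mature neutrophil genes 8 were lower (median -2.67, summed 10.64 to 12.17 in HOXB4, against 14.05 to 14.22 in GFP cells), and of 7 monocyte genes 5 were lower (median -1.87, summed 9.42 to 9.96 in HOXB4, against 11.54 to 11.99 in GFP cells). Of 9 megakaryocyte genes 5 were higher (median 1.20, summed 10.80 to 12.10 in HOXB4, against 8.63 to 9.35 in GFP cells). Of 8 B cell genes limma called 0 at 20 weeks and 6 had an unadjusted p under 0.05 (median 1.67, 12.54 to 13.39 in HOXB4, against 10.10 to 12.12 in GFP cells). Of 8 LSK genes 2 were higher (median 0.46, 10.95 to 11.30 in HOXB4, against 10.54 to 10.83 in GFP cells). Of the other lists, 3 of 6 eosinophil genes were lower, 3 of 7 mast cell and basophil genes were higher and 1 lower, and 1 of 8 erythroid, 0 of 9 T and NK cell (1 at an unadjusted p under 0.05) and 1 of 9 stromal genes were higher. No marker was at 0 on this scale, and the lowest single value in all lists was 3.04. The part of these cells in the Dusp6 and Spred1 differences was not tested, and in such bulk samples fewer cells of a type and less RNA per cell cannot be told apart.

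Some of these lists also changed in GFP cells between 12 and 20 weeks, where Spred1 fell on 2 probe sets. Of all genes 2.37% were called there. Mature neutrophil genes were higher at 20 weeks in 7 of 10, with a summed log2 signal of 14.05 to 14.22, against 10.59 to 11.52 at 12 weeks. Of the others, 4 of 7 monocyte and 1 of 8 B cell genes were higher at 20 weeks, and 4 of 9 megakaryocyte, 2 of 8 LSK, 2 of 8 erythroid and 1 of 9 stromal genes were lower. Of the granulocyte-monocyte progenitor genes limma called 0 of 9, with 4 at an unadjusted p under 0.05. It also called 0 of the eosinophil, mast cell and basophil, and T and NK cell genes, with 1, 4 and 2 at an unadjusted p under 0.05. At 12 weeks the B cell genes differed between the vectors, 7 of 8 higher in HOXB4 cells, with a summed log2 signal of 12.14 to 12.64, against 9.004 to 9.27 in GFP cells. Granulocyte-monocyte progenitor genes were lower in 8 of 9 at that time, as were 2 of 8 LSK and 2 of 6 eosinophil genes. Mature neutrophil genes went the opposite way to 20 weeks, with 1 of 10 called higher and a median of 1.25. Their sums were 12.54 to 13.07 in HOXB4, against 10.59 to 11.52 in GFP cells. Of 9 megakaryocyte genes 2 were higher, and of 7 mast cell and basophil genes 1 was higher and 1 lower. Limma called 0 in the other lists, with 5 monocyte, 2 T and NK cell and 1 stromal gene at an unadjusted p under 0.05. Dusp6 was not called, against 4.02% of all genes.

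**Figure D4:**
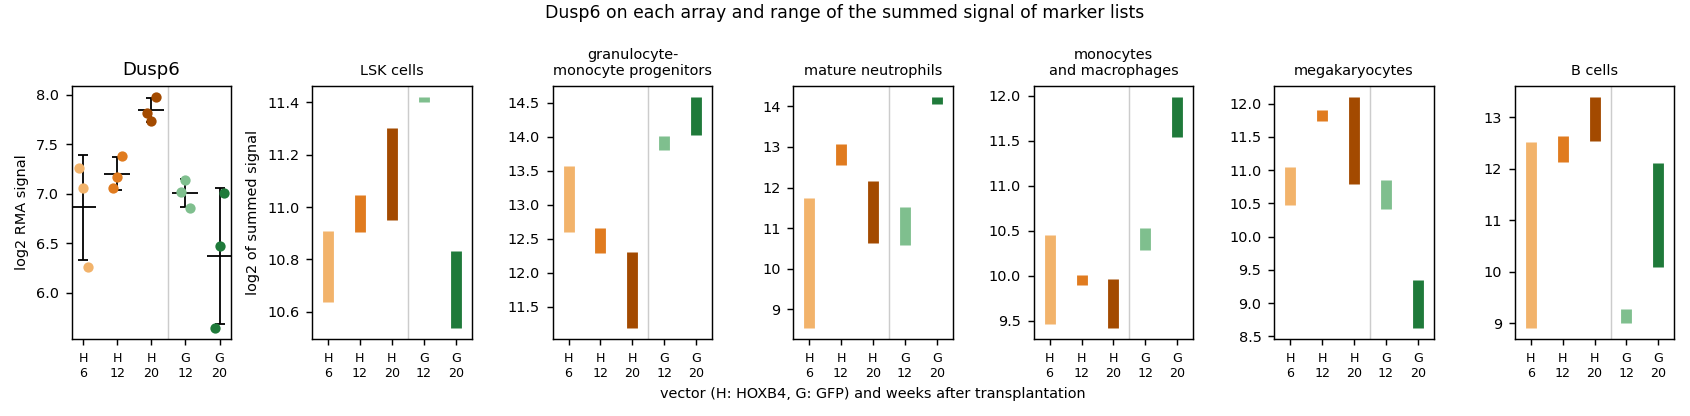
Left, log2 RMA signal of Dusp6 on each array with the mean ± SD of 3 arrays; other panels, the range over 3 arrays of the log2 of the summed signal of 6 marker lists, for HOXB4 (H) at 6, 12 and 20 weeks and GFP (G) at 12 and 20 weeks. At 20 weeks Dusp6 and the megakaryocyte, B cell and LSK lists are higher in HOXB4 than in GFP cells without overlap. The granulocyte-monocyte progenitor, neutrophil and monocyte lists are lower.

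Among 6019 other genes whose values spanned at least 1 log2 unit, the patterns most like that of Dusp6 over the 15 arrays were those of Arl3, a small GTPase of cilia (Pearson r = 0.93), and Selenop, a secreted selenium carrier (r = 0.90). Arl3 was at 8.22, 8.22 and 8.20 in HOXB4 cells at 20 weeks, against 7.07, 7.52 and 7.82 in GFP cells. Selenop was at 9.75, 9.99 and 10.03 in HOXB4, against 8.72, 8.54 and 9.34 in GFP cells. These r describe 15 arrays that share 5 groups, and both genes were picked as the highest of all those searched.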

How the data were processed

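The authors deposited log2 expression values of 45141 probe sets on 15 arrays. Partek 6.5 and RMA are named in the submitters' processing notes. Probe filters and further scaling are not given in the sources used here. Per the labels' protocols, 20 ng of total RNA were amplified and biotin-labelled with NuGEN kits. Probe sets were named through GEO's platform annotation, with 28689 of 28898 single symbols updated by gene identifier to GRCm38.p6. A further 551 had several symbols and 15692 were not listed.

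The brightest probe set of each of 17097 genes entered 1 model with a mean per group, fitted on all arrays with limma 3.58.1 in R 4.3.3 (lmFit, eBayes, with 10 degrees of freedom from the arrays and 4.55 from the prior). Every test was two-sided and adjusted by Benjamini-Hochberg over all genes. The fit was tested on simulated data for HOXB4 over GFP at 20 weeks with 17097 genes, where it recovered 78 of 100 genes changed by 1 log2 unit and 100 of 100 changed by 2, with 12 false calls. The simulated noise was normal, independent between genes and, for each gene, equally wide in all groups. In the data the spread can differ between groups, as for Dusp6 at 20 weeks, so these rates may not hold there. With 3 arrays against 3, an exact permutation test cannot go below 0.1, so p-values rest on the model, and the number of arrays limits the precision.

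All members with a probe set were named. Of pathway lists, up to 4 called genes per comparison were named, and of marker lists counts and medians with up to 2 genes. The likeness rule took the 2 genes with the highest r. Tek, Itgam, Cd34 and values of uncalled genes such as Fgfr1 were added after they were seen. Members and lists were chosen with earlier results of these data known. Alternatives were a fit on the compared groups, a filter on the dimmest 1 in 3 genes, the mean of probe sets, all probe sets, quantile normalisation, median centring, array weights, a variance trend with robust moderation, a block for the replicate number and each array left out. Of the 45141 probe sets, 13776 held an identical value on at least 2 arrays, the tested ones of Dusp4 and Etv4 among them, which the probe summary of RMA can give.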

Additional observations from a re-analysis of the deposited data

How the results depend on the processing

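Dusp6 at 20 weeks was called under each of the 15 alternatives. With each array left out in turn, the number of members called at 20 weeks was 1 to 2, that for the difference between the vector effects 0 to 1, that in GFP cells between 12 and 20 weeks 0 to 1, and that in HOXB4 cells between 6 and 20 weeks 0 to 1. The count was 0 in every such fit for the other 3 comparisons. A fit on the compared groups called 1 member at 12 weeks, Spred2 (-0.35, adjusted p = 0.0498). The mean of probe sets called 2 at 20 weeks and 1 in GFP cells over time, Spred1 being added in both. Array weights called 1 at 12 weeks (Spred1), 2 at 20 weeks (Dusp6 and Spry1), 1 for the difference between the effects (Dusp6, 1.63) and 3 in GFP cells over time (Spry2, Spred1 and Dusp6). The cause was not tested. The dim-gene filter, which leaves Spry1, Spry4, Dusp4 and Etv4 out, quantile normalisation, median centring and the variance trend changed no count by over 1.5 times. With all probe sets tested, the count over the brightest probe sets did not change, but 4 probe sets of 2 members were called at 20 weeks and 2 probe sets of Spred1 in GFP cells over time. No member that was called under any setting had the opposite sign in the main model.

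Replicate numbers are shared between groups, but of 30 same-numbered pairs only 2 had deviations correlated above 0.1 (range -0.17 to 0.12), so they were not taken as pairs. With the number as a block, 1 member was called at 20 weeks, Dusp6 (adjusted p = 0.00916), and 0 in the other 6 comparisons. Without detection calls, the 4 dim members cannot be told from background.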

Other observations

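With 3 arrays in a group, any array is expected to be the lowest or the highest of its group for most genes. The arrays below lay at such an end in many members, in both directions. The share over all genes was not counted, so this is not shown to be a trait of these arrays. Replicate 3 of GFP at 20 weeks had the highest Dusp6 (7.01), Spry1 (4.74), Spry2 (5.87), Dusp4 (4.51) and Etv5 (5.41) of its group, and the lowest Spred1 (7.58) and Spry4 (4.53). It also had the highest Flt3 (9.08, against 7.63 and 7.40), the receptor of early lymphoid progenitors, and Cd79a (9.98, against 8.79 and 7.31), a chain of the B cell receptor. Replicate 3 of HOXB4 at 6 weeks had the lowest Dusp6 (6.27), Spry1 (4.87), Etv5 (3.45) and Spred2 (7.01) of its group, and the highest Spry2 (6.11), Spry4 (4.80), Spred1 (7.80) and Etv4 (4.07). The other phosphatase Dusp1 was highest there, at 10.28, against 7.81 and 8.22 on its replicates, and Cd79a was lowest, at 6.20, against 8.25 and 9.44. These arrays were chosen after their values were seen, and whether the members follow the cell types on them was not tested.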
